A study of Mus musculus with 3 samples.

Results

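The 10 genes described here, Acta2, Actg2, Tagln, Cnn1, Smtn, Lmod1, Myh11, Mylk, Des and Myocd, encode the contractile apparatus of smooth muscle and its transcriptional coactivator. They were taken as every non-control probe of the array whose annotated gene name is one of these symbols. This gave 18 probes on 36 spots, of 41126 probes for 27932 gene names on 43379 non-control spots. The tissue was the utero-tubular junction of CD-1 mice, an outbred stock, the short segment where the uterine horn opens into the oviduct. All females were adult and in estrus. RNA of 10 females was pooled for each of the 3 groups, which were females mated with normal males, females mated with vasectomized males, and females that were not mated. Vasectomy leaves the ejaculate free of sperm, so the mated groups differ from each other in the kind of male, and each differs from the not mated group in having mated. Each pool was hybridised to 1 array with Cy3 label, so no comparison below has a replicate, a test or a p-value, and a ratio compares these pools. The time between mating and collection is not given in the labels used here.

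In smooth muscle, calcium entering the cell binds calmodulin, which activates myosin light chain kinase. The kinase phosphorylates the light chains of smooth muscle myosin, and the myosin then pulls on filaments of smooth muscle actin. Actin-binding proteins such as calponin and transgelin decorate the thin filament, desmin filaments link the contractile units, and myocardin, bound to serum response factor at CArG boxes, switches on many of these genes together. The wall of the utero-tubular junction holds circular and longitudinal muscle, and the junction is known as a barrier that sperm must pass to reach the oviduct.

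A level is given below as a multiple of the 75th percentile signal of the array's non-control spots, which was 708 in normal mated, 295 in vasectomized mated and 874 in not mated. Between 65.9% and 70.7% of spots were well above background, and no spot was saturated. Spots of a replicated probe differed by a median SD of 0.0522 to 0.0622 on the log2 scale within an array, which measures spotting and scanning only. The spike-in control probes ran the other way from the 75th percentile, with a geometric mean signal of 5934 in normal mated, 11263 in vasectomized mated and 5193 in not mated. Scaling on those controls in place of the percentile would lower every log2 ratio of vasectomized mated over not mated by 2.69 and every ratio of normal mated over not mated by 0.50, and would raise every ratio of normal mated over vasectomized mated by 2.19. Directions below are therefore relative to the 75th percentile of each array. The tissue is labelled as the junction, whose wall is muscular, and the brightest probe of each of the 10 genes was well above background on all 3 arrays, as were 16 of the 18 probes.

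CArG boxes can be looked for in the promoters, and these are shown for the 2 members in which a near match was found. Windows of 250 bases before to 50 bases after the start of transcription were searched in RefSeq sequence on GRCm38.p6 for Des, Lmod1, Cnn1, Smtn, Mylk and Acta2, the 6 members in the table, and the 250 bases before the start are printed. Letters are printed 5′ to 3′ on the strand of the gene, and capitals mark matches to the CArG box with at most 1 base departing from it. The CArG box reads alike on both strands, so that 1 search covers both.
Acta2, chr19:34255374-34255623, minus strand: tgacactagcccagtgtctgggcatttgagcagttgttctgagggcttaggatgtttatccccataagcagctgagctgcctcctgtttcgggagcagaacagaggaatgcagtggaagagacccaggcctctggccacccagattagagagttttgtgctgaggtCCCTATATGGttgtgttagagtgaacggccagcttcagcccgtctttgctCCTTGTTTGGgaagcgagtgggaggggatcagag
Lmod1, chr1:135324563-135324812, plus strand: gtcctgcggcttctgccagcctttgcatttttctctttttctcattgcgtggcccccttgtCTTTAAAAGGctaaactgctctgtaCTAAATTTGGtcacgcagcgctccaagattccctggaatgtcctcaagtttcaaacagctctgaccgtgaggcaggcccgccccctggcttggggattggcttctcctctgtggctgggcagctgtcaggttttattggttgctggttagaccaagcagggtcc
The matches of Acta2 begin 84 and 34 bases before the start, and those of Lmod1 begin 189 and 164 bases before it. No exact CArG box lay in any of the 6 windows, against 1.63% of all 32851 promoter windows of that length in the table. A near match lay in 2 of the 6, against 21.1% of all promoters. The match is a description of letters, and binding was not measured.

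Acta2 encodes the alpha actin of smooth muscle and is the most used marker of the contractile cell. Its brightest probe, printed 10 times on the array, read 56.3 in normal mated, 84.5 in vasectomized mated and 119 in not mated. The 10 spots ran from 53.4 to 60.8 in normal mated, from 78.7 to 91.0 in vasectomized mated and from 112 to 125 in not mated. These ranges measure spotting and scanning of 1 pool per array, and not the spread between females. The level was 2.12-fold lower in normal mated than in not mated (log2 ratio -1.08). In vasectomized mated the log2 ratio to not mated was -0.50, which turned to 0.66 with the median over the gene's probes.

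Actg2 encodes the gamma actin of visceral smooth muscle. Its probe read 10.3 in normal mated, 8.08 in vasectomized mated and 15.0 in not mated. Both mated arrays were below the not mated array, with log2 ratios of -0.54 in normal mated and -0.89 in vasectomized mated, neither of them 2-fold.

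Tagln encodes transgelin, also called SM22 alpha, which binds actin filaments. Its brighter probe read 211 in normal mated, 915 in vasectomized mated and 189 in not mated. Normal mated and not mated lay close together, with a log2 ratio of 0.16 that turned to between -0.15 and -0.33 under quantile, cyclic loess, reference gene and spike-in scaling. Vasectomized mated stood 4.85-fold above not mated (log2 ratio 2.28), a direction that turned under spike-in scaling (-0.41).

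Cnn1 encodes calponin, a thin filament protein that restrains the myosin ATPase. Its probe read 46.8 in normal mated, 172 in vasectomized mated and 85.8 in not mated. Normal mated was the lowest array (log2 ratio -0.88 to not mated), and vasectomized mated was the highest. The ratio of vasectomized mated to not mated lay just at the 2-fold threshold (log2 1.00) and turned to -0.21 under quantile normalization and -1.68 under spike-in scaling.

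Lmod1 encodes leiomodin, which nucleates actin filaments in smooth muscle. Its probe read 5.75 in normal mated, 78.9 in vasectomized mated and 10.9 in not mated. The vasectomized mated array was far above both others, 7.24-fold above not mated (log2 ratio 2.86, and 0.17 under spike-in scaling). The log2 ratio of normal mated to not mated was -0.92.

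Smtn encodes smoothelin, a cytoskeletal protein of contractile smooth muscle cells. Its probe read 0.946 in normal mated, 0.646 in vasectomized mated and 2.97 in not mated. It was at least 2-fold below not mated on both mated arrays, by 3.14-fold in normal mated (log2 ratio -1.65) and by 4.60-fold in vasectomized mated (-2.20).

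Myh11 encodes the smooth muscle myosin heavy chain, the motor of the thick filament. Its probe read 6.88 in normal mated, 9.80 in vasectomized mated and 25.5 in not mated. As for Smtn, both mated arrays were lower by at least 2-fold, here by 3.70-fold in normal mated (log2 ratio -1.89) and by 2.60-fold in vasectomized mated (-1.38).

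Mylk encodes the myosin light chain kinase that starts contraction. Its brightest probe read 13.4 in normal mated, 22.9 in vasectomized mated and 36.6 in not mated. The normal mated array was 2.72-fold below not mated (log2 ratio -1.45), and the vasectomized mated array lay between the others (-0.67).

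Des encodes desmin, the intermediate filament protein of muscle. Its probe, also printed 10 times, read 5.78 in normal mated, 5.36 in vasectomized mated and 11.2 in not mated. The log2 ratios to not mated were -0.96 in normal mated and -1.07 in vasectomized mated, which fall on either side of the 2-fold threshold. Spots ran from 5.36 to 6.0 in normal mated, from 5.08 to 5.74 in vasectomized mated and from 10.7 to 11.9 in not mated. As for Acta2, these ranges measure spotting and scanning only.

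Myocd encodes myocardin, the coactivator of serum response factor that drives the smooth muscle programme. Its brighter probe read 0.140 in normal mated, 1.46 in vasectomized mated and 0.845 in not mated. Normal mated was by far the lowest array, 6.02-fold below not mated (log2 ratio -2.59). The log2 ratio of vasectomized mated to not mated was 0.79, which turned to -1.90 under spike-in scaling.

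**Figure D1:**
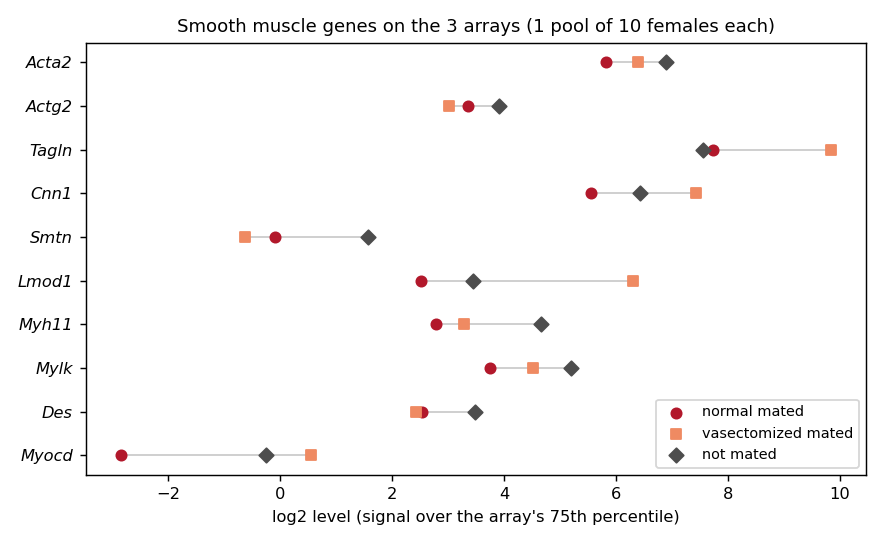
Level of each member gene at its brightest probe on the 3 arrays. The horizontal axis is log2 of the signal over the array's 75th percentile, each symbol is 1 array of 1 pool, and rows are to be read one by one because different probes have different brightness. Normal mated lies left of not mated in 9 of 10 rows, while vasectomized mated lies right of not mated for Tagln, Cnn1, Lmod1 and Myocd, of which Tagln, Cnn1 and Myocd turn direction under spike-in scaling.

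After normal mating, 5 of the 10 genes (Acta2, Smtn, Myh11, Mylk and Myocd) were at least 2-fold lower than in not mated and 0 were at least 2-fold higher, while 13.2% of the 19474 measured genes were that much lower, 9.77% that much higher and 23.0% either way. Of the members, 9 of 10 had a ratio below 0, against 53.1% of all measured genes, and their median log2 ratio was -1.02 against -0.05 over all. The exception was Tagln. At 3-fold, 3 of the 10 were lower (Smtn, Myh11 and Myocd), against 4.96% of all measured genes, and at 1.5-fold 8 of the 10 were, against 24.9%. No member was 2-fold higher under any of the 13 alternative settings. In a bulk pool, fewer muscle cells and less RNA per muscle cell cannot be told apart.

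After mating with vasectomized males the members went both ways. Tagln, Cnn1 and Lmod1 were at least 2-fold higher than in not mated and Smtn, Myh11 and Des at least 2-fold lower, which is 3 in each direction of 10. Over the 19474 measured genes 25.7% were that much higher, 16.5% that much lower and 42.3% either way. The members' count of higher genes thus lies near the share over all genes. Their count of lower genes is above it but rests on few genes, with Des close to the threshold (log2 ratio -1.07). Under median scaling 2 of 10 were lower, against 14.9% of all genes. The median log2 ratio over the members was -0.58 against 0.18 over all, and 6 of 10 members had a ratio below 0, against 44.6% of all. At 1.5-fold 5 of the 10 were lower, against 26.2% of all measured genes, and at 3-fold 1 was (Smtn), against 7.74%. Scaled on the spike-in controls, 0 members were higher and 8 of 10 lower, where 1.16% of all genes were higher and 88.3% lower and the median over all genes was -2.57. The comparisons of both matings share the not mated array.

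The normal mated and vasectomized mated arrays can be set against each other without that array. Of the 10 members, 4 were at least 2-fold lower in normal mated than in vasectomized mated and 0 were higher. The 4 were Lmod1, 13.7-fold lower (log2 ratio -3.78), Myocd, 10.4-fold lower (-3.38), Tagln, 4.33-fold lower (-2.11), and Cnn1, 3.67-fold lower (-1.88). Over the 19146 genes measured in this comparison, 27.9% were at least 2-fold lower, 14.7% higher and 42.6% either way, and the median log2 ratio was -0.68 over the members against -0.27 over all. A ratio below 0 was found for 7 of 10 members and for 58.6% of all. Actg2, Smtn and Des read slightly higher in normal mated, with log2 ratios of 0.35, 0.55 and 0.11. At their brightest probes, Lmod1 and Myocd kept their direction under spike-in scaling (-1.59 for Lmod1 and -1.19 for Myocd), while Tagln and Cnn1 did not (0.08 for Tagln and 0.31 for Cnn1). The second probe of Myocd was 2.32-fold lower (log2 ratio -1.21), less than the shift of 2.19 under that scaling, and the median over its probes was -2.30.

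Of the 10 genes, 4 are read by more than 1 probe, and these show how far the value of a gene depends on where it is read. Probe coordinates are those of the files, on build mm7. Gene models of that build were not used here, so exon and UTR positions of the probes are not given. The 5 probes of Acta2 lie on the minus strand of chromosome 19, at chr19:33941939-33941997, chr19:33942440-33942499, chr19:33942803-33942862, chr19:33949738-33952992 and chr19:33954688-33954747, in order from the 3′ end of the gene. The fourth covers 3255 bases of genome with a probe of 60 bases, as a probe that crosses an intron does.

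The Acta2 probe nearest the 3′ end read 0.138 in normal mated, 1.68 in vasectomized mated and 0.215 in not mated. The next, 501 bases away in the genome, read 2.23 in normal mated, 12.0 in vasectomized mated and 4.12 in not mated. Both were more than 2-fold higher in vasectomized mated than in not mated, with log2 ratios of 2.97 and 1.54, while the brightest probe, 864 bases from the 3′-most, had -0.50. The fourth, 7799 bases away, read 13 in normal mated, 6.53 in vasectomized mated and 17.6 in not mated, a log2 ratio of -1.43 for vasectomized mated over not mated. So for this mating the ratio of Acta2 ran over 4.40 log2 units across 4 measured probes and was higher the nearer the probe lay to the 3′ end. The 3′-most probe is not annotated to the gene's RefSeq transcript. Over the measured probes that are, the log2 ratio went from 1.54 through -0.50 to -1.43 in that order. For normal mated over not mated the same 4 probes gave -0.63, -0.89, -1.08 and -0.44, all below 0. The last probe, 12749 bases away, is not annotated to that transcript either, and was not well above background in not mated. It read 0.0133 in normal mated, 0.172 in vasectomized mated and 0.0133 in not mated, and was at least 11.4-fold higher in vasectomized mated than in not mated. Such a bound sets the brighter array against the higher of the dim probe's own signal and the lowest signal well above background on the dimmer array.

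The 2 probes of Tagln lie at chr9:45888137-45888196 and chr9:45888956-45889015 on the minus strand. The second, 819 bases from the 3′-most, read 29.5 in normal mated, 174 in vasectomized mated and 29.0 in not mated. It gave the same picture as the brighter one, with log2 ratios to not mated of 0.02 in normal mated and 2.59 in vasectomized mated.

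The probes of Mylk lie at chr16:34671521-34671580, chr16:34669844-34669903 and chr16:34628800-34628859 on the plus strand. The 3′-most read 11.7 in normal mated, 22.6 in vasectomized mated and 29.9 in not mated, with log2 ratios to not mated of -1.35 in normal mated and -0.40 in vasectomized mated. These lie close to the ratios of the brightest probe, 1677 bases upstream, of -1.45 in normal mated and -0.67 in vasectomized mated. The third probe, 42721 bases away, is not annotated to the RefSeq transcript of the others. It was well above background in vasectomized mated and on no other array, and was at least 1.66-fold higher there than in not mated.

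The probes of Myocd lie at chr11:65258470-65258529 and chr11:65260346-65260405 on the minus strand. The second, dimmer probe read 0.0217 in normal mated, 0.0502 in vasectomized mated and 0.0759 in not mated. It was lower in normal mated than in not mated like the brighter one (log2 ratio -1.81), but for vasectomized mated it gave -0.60 where the brighter, 3′-most probe gave 0.79.

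**Figure D2:**
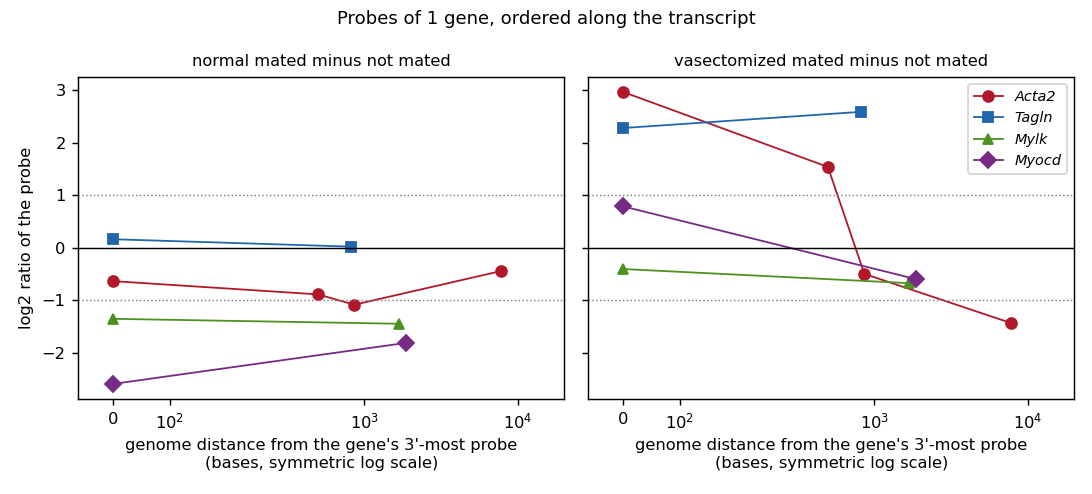
Log2 ratio of each probe that was well above background on all 3 arrays, for the 4 genes with more than 1 such probe, against its distance in the genome from the gene's 3′-most probe (bases, symmetric log scale), with normal mated over not mated on the left and vasectomized mated over not mated on the right. Dotted lines mark 2-fold. On the left Tagln and Mylk are nearly level, while the probes of Acta2 differ by 0.64 and those of Myocd by 0.78. On the right Acta2 goes down to -1.43 at the probe farthest from the 3′ end, with 2.97 at the 3′-most.

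Spread between the probes of a gene was also seen across the array. Among 5725 genes with at least 2 probes well above background on all arrays, the ratios of a gene's probes differed by a median of 0.30 log2 units for normal mated over not mated, with 10.8% of genes over 2-fold. For vasectomized mated over not mated the median was 1.04 and 51.5% of genes were over 2-fold, and for normal mated over vasectomized mated the median was 0.99, with 49.3%. In 3860 genes whose RefSeq probes could be ordered, the 3′-most probe had the higher ratio in 50.6% for normal mated over not mated, in 64.8% for vasectomized mated over not mated and in 32.8% for normal mated over vasectomized mated. The vasectomized mated array also had the lowest 75th percentile. The part of either in the members' values was not tested. When each gene was read at its probe nearest the 3′ end, the members' median for vasectomized mated over not mated was 0.19 in place of -0.58. For normal mated over not mated it was -0.94 in place of -1.02. Only Acta2 and Mylk changed probe under this reading. For vasectomized mated over not mated, Acta2 went from -0.50 to 2.97 and Mylk from -0.67 to -0.40. The change in the median thus rests on these genes and not on the whole set.

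Counted by probe, 7 of 16 measured member probes were at least 2-fold lower in normal mated than in not mated and 0 were higher, where 11.9% of the 26907 measured probes were that much lower and 8.04% higher. A ratio below 0 was found for 14 of the 16, against 56.3% of all. In vasectomized mated against not mated, 6 of 16 were higher and 4 lower, where 22.3% of 25398 probes were higher and 18.8% lower, and 9 of 16 had a ratio below 0, against 47.4% of all. In normal mated against vasectomized mated, 9 of 17 were lower and 0 higher, where 25.2% of 26016 probes were lower and 16.8% higher, and 13 of 17 had a ratio below 0, against 57.1% of all. Probes of a gene share that gene's RNA and are not independent.

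**Figure D3:**
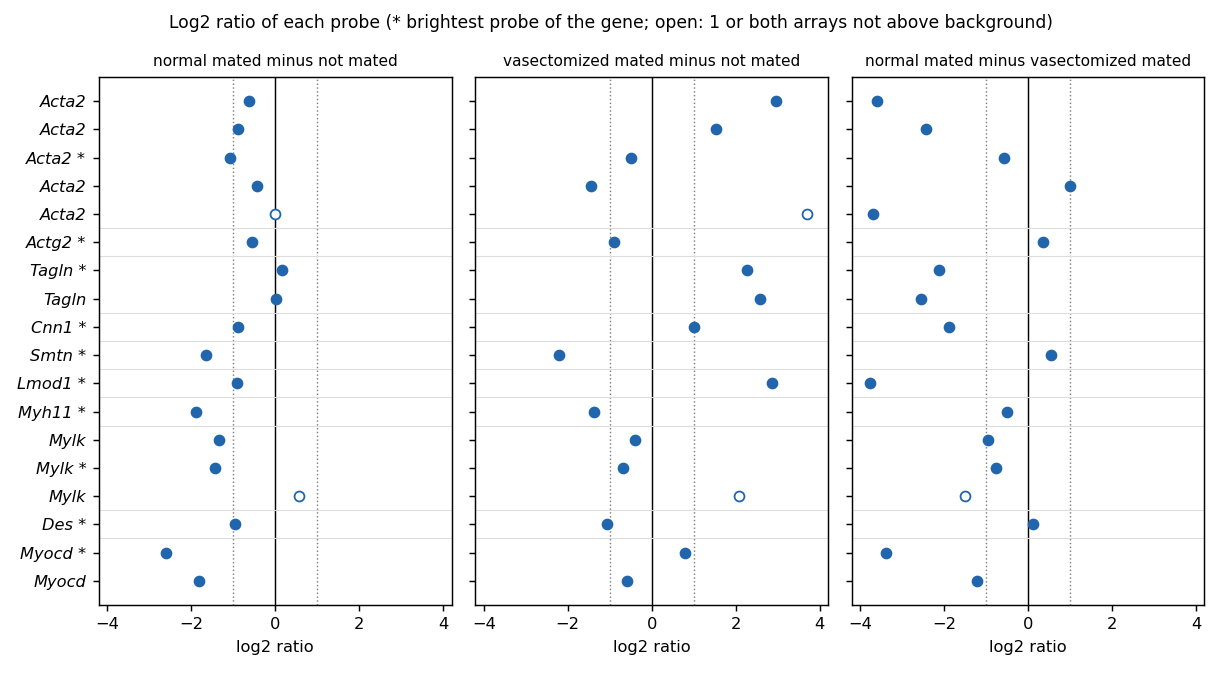
Log2 ratio of every member probe in the 3 comparisons, with the probes of a gene in order from the 3′ end and the brightest marked by an asterisk. Filled points are well above background on both arrays, open points are not on at least 1 of them, and dotted lines mark 2-fold. On the left 14 of 16 filled points lie below 0, in the middle the points spread to both sides, and on the right 13 of 17 lie below 0, relative to the 75th percentile. Spike-in scaling would shift every point by -0.50 on the left, by -2.69 in the middle and by 2.19 on the right.

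Other genes of smooth muscle were taken from lists that were set with earlier results of these data known. The counts of all lists below stand beside the shares over all measured genes. In normal mated over not mated 13.2% were at least 2-fold lower and 9.77% higher. In vasectomized mated over not mated 16.5% were lower and 25.7% higher. Of 32 further contractile and cytoskeletal genes, 10 were at least 2-fold lower and 1 higher in normal mated than in not mated (median log2 ratio -0.79). In vasectomized mated 2 were lower and 6 higher (median 0.39). Actn1, which encodes an alpha-actinin that crosslinks actin, was lower on both mated arrays, with log2 ratios of -1.44 in normal mated and -2.55 in vasectomized mated. Of 20 genes that regulate myosin phosphorylation and relaxation, 5 were lower and 0 higher in normal mated (median -0.55), and 2 were lower and 5 higher in vasectomized mated (median 0.59). In this list Ppp1cb, the catalytic subunit of myosin phosphatase, had log2 ratios of 0.29 in normal mated and 2.72 in vasectomized mated, while Dapk3, a kinase that phosphorylates myosin light chains, had 0.05 in normal mated and -2.54 in vasectomized mated.

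Of 17 measured regulators of smooth muscle transcription, 3 were lower and 0 higher in normal mated (median -0.36), and 6 were lower and 5 higher in vasectomized mated (median 0.19). Mef2a, a MADS box transcription factor of muscle, was lower on both arrays (-1.47 in normal mated and -1.10 in vasectomized mated). Srf, which encodes the partner of myocardin at the CArG box and was named for that role after its values were seen, had log2 ratios of -0.78 in normal mated and -0.59 in vasectomized mated, neither 2-fold.

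Of 17 measured genes for calcium and potassium channels and junctions, 3 were lower and 0 higher in normal mated (median -0.65). In vasectomized mated 2 of 16 were lower and 4 higher (median 0.03). Abcc9, the sulfonylurea receptor subunit of muscle potassium channels, had log2 ratios of -0.92 in normal mated and 2.00 in vasectomized mated. Orai1, a store-operated calcium channel, had 0.83 in normal mated and -2.08 in vasectomized mated. Abcc9 and Kcnj8 of this list also stand on the pericyte list below, as does Notch3 of the transcription list, so these lists are not separate.

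Of 18 measured receptors that drive or relax the muscle, 7 were lower and 0 higher in normal mated (median -0.83). In vasectomized mated 2 of 17 were lower and 4 higher (median 0.17). Ednrb, an endothelin receptor, had log2 ratios of -2.93 in normal mated and -2.44 in vasectomized mated, and Ptger2, a relaxing receptor for prostaglandin E2, had -2.06 in normal mated and -1.03 in vasectomized mated. So after normal mating these 5 smooth muscle lists had medians below that of all genes (-0.05), as the members did. After mating with vasectomized males the medians lay on both sides of that of all genes (0.18), with the channel and receptor lists below it. Under spike-in scaling the medians for vasectomized mated over not mated all fell below 0.

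Non-muscle and skeletal relatives of the members were read from a list of their own. Of 17 measured, 1 was at least 2-fold lower and 2 were higher in normal mated than in not mated (median log2 ratio 0.19), and in vasectomized mated 4 were lower and 4 higher (median 0.27). Myh10, a non-muscle myosin heavy chain, was lower on both mated arrays, with log2 ratios of -1.44 in normal mated and -2.48 in vasectomized mated. Mylk2, the skeletal muscle kinase, was higher on both (1.57 in normal mated and 2.05 in vasectomized mated). Its only probe was dim, at 0.0524 in normal mated, 0.0734 in vasectomized mated and 0.0177 in not mated. The relatives of Tagln, Cnn1 and Acta2 were named for relatedness after their values were seen. Tagln2 had 1.30 in normal mated and -0.79 in vasectomized mated, Cnn2 had -0.75 in normal mated and 1.45 in vasectomized mated, and Actb had 0.39 in normal mated and 1.83 in vasectomized mated. Of 25 striated muscle genes, 20 were measured in normal mated over not mated, 4 of them higher and 3 lower (median 0.21), and 22 in vasectomized mated over not mated, 4 higher and 0 lower (median 0.50). The summed level of the 25 genes was 17.5 in normal mated, 39.5 in vasectomized mated and 20.9 in not mated.

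Markers of the other cell types of the junction also differed between the arrays. Among the 16 markers of endothelium, 13 were lower by at least 2-fold and 0 higher in normal mated than in not mated (median log2 ratio -1.66), and 9 were lower and 1 higher in vasectomized mated (median -1.14). Pecam1, an adhesion protein of endothelial junctions, had -2.23 in normal mated and -2.30 in vasectomized mated. Of 20 fibroblast and stromal markers, 11 were lower and 0 higher in normal mated (median -1.19), and 1 was lower and 8 were higher in vasectomized mated (median 0.29). Of 12 measured pericyte and vascular mural markers, 5 were lower and 0 higher in normal mated (median -0.95), and 0 were lower and 7 higher in vasectomized mated (median 1.40). Rgs5, a regulator of G protein signalling found in pericytes, had -2.82 in normal mated and -0.88 in vasectomized mated. In vasectomized mated it thus went against its list, and its other probe gave 0.70. Rgs4, of the same list, had -0.88 in normal mated and 2.14 in vasectomized mated.

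Epithelial markers went the other way after normal mating, with 7 of 16 higher and 0 lower (median 0.69), while in vasectomized mated 2 were higher and 5 lower (median -0.29). Of 8 mesothelial markers, 5 were higher and 0 lower in normal mated (median 1.23), and 2 were higher and 1 lower in vasectomized mated (median 0.77). Of 18 leukocyte and neutrophil markers, 9 were higher and 0 lower in normal mated (median 0.80), and 13 of 17 were higher and 0 lower in vasectomized mated (median 1.65). In normal mated 6 of the 18 had a ratio below 0. S100a9, a calcium-binding protein of neutrophils, read 55.7 in normal mated, 83.2 in vasectomized mated and 0.112 in not mated. Of 15 reference genes, 2 were higher and 0 lower in normal mated (median 0.21), and 5 were higher and 0 lower in vasectomized mated (median -0.03). The 2 were Pgk1 and Tfrc, with log2 ratios of 2.15 and 1.53 in normal mated and 2.36 and 2.45 in vasectomized mated. Reference gene scaling used the mean of all 15, these included.

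Stromal markers summed to 365 in normal mated, 1159 in vasectomized mated and 561 in not mated, and endothelial markers to 25.4 in normal mated, 54.8 in vasectomized mated and 64.7 in not mated. Epithelial markers summed to 1178 in normal mated, 728 in vasectomized mated and 783 in not mated. Leukocyte markers summed to 107 in normal mated, 241 in vasectomized mated and 45.5 in not mated. Of these sums S100a9 alone made up 55.7 in normal mated, 83.2 in vasectomized mated and 0.112 in not mated. Stromal, endothelial and pericyte markers were thus low together with the muscle genes on the normal mated array. The sums of epithelial and leukocyte markers were above those of not mated there, the leukocyte sum largely through S100a9. The part of the tissue's cell makeup in the members' ratios was not tested.

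**Figure D4:**
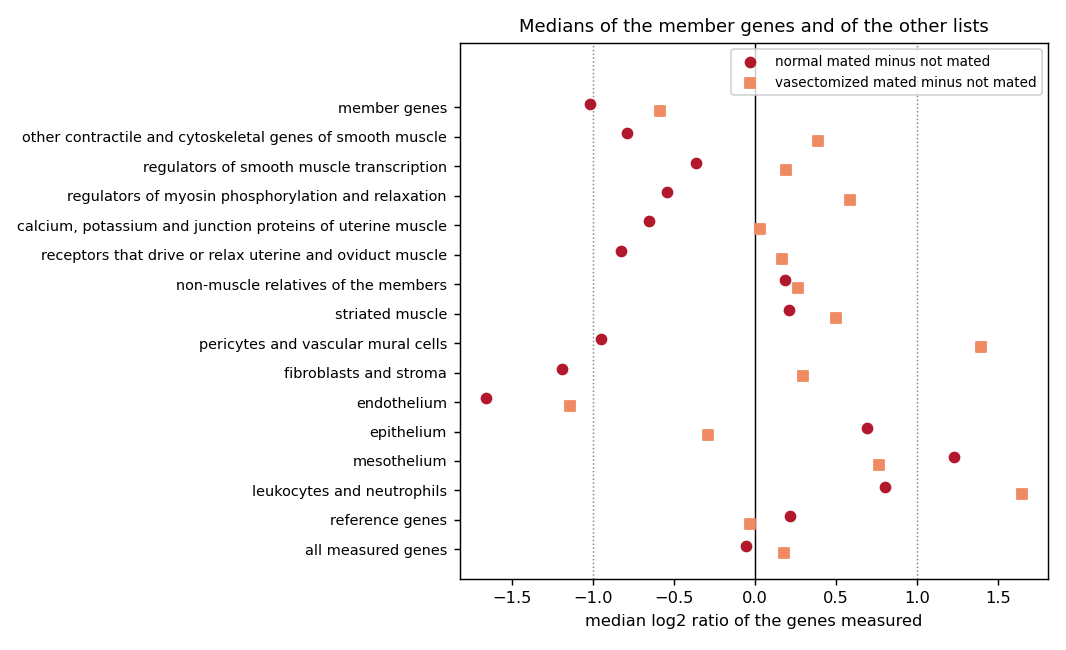
Median log2 ratio of the 10 member genes, of the 14 other lists and of all measured genes, for normal mated over not mated (circles) and vasectomized mated over not mated (squares), with dotted lines at 2-fold. The members sit at -1.02 for normal mated and -0.58 for vasectomized mated, between the stromal list (-1.19) and the pericyte list (-0.95) for normal mated, and on the opposite side of 0 from both of these lists for vasectomized mated, relative to the 75th percentile. Under spike-in scaling the square of all measured genes would lie at -2.57 in place of 0.18, and that of the members at -3.27.

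Many genes outside the list lay near the members' pair of median ratios. Of 17333 such genes well above background on all arrays, 917 lay within 0.5 log2 units of the point at -1.02 for normal mated over not mated and -0.58 for vasectomized mated over not mated. The 5 nearest by straight-line distance over these 2 ratios from 3 arrays were, by the array's names, TC1454581, LOC237412, Falz, Casc5 and Als4, at 0.0122 to 0.0388. The point joins 2 separate medians and is not a pattern that the members share. Of the members, Acta2, Mylk and Des lay within 0.5 of it, and the others, among them Tagln and Lmod1, did not.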

How the data were processed

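Total RNA of the utero-tubular junction was measured on 3 Agilent 1-colour arrays, 1 per group, each a pool of 10 females. The deposited values are intensity values on a linear scale, background-corrected signals that the authors obtained with Agilent Feature Extraction, version 9.5.3 per the submitters' processing notes and 10.5.1.1 per the file headers. Per the file headers, probe coordinates are on build mm7. Coordinates run from 5′ to 3′, so that a start above the end marks the minus strand, which was checked against the strands of RefSeq promoters (99.0% of 10223 genes the same). Per the labels' protocols, the RNA was primed with oligo-dT and amplified with T7 polymerase.

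Control spots and outlier spots were left out, log2 signals were set to each array's 75th percentile, and spots of a probe were averaged. A gene is read at its brightest probe, and is measured where it was well above background on both arrays compared, or on 1 of them and brighter there than the bound of the other array. With 1 array per group there is no test, and at least 2-fold (log2 of 1) is the call. The number of arrays limits the precision. The calculation was tested on simulated data, in which every group was a copy of the not mated array with small noise and planted fold changes. That check covers the arithmetic only. It holds none of the scaling or probe differences of the vasectomized mated array. Tools were matplotlib 3.10.9, pandas 2.3.3, numpy 2.4.6 and Python 3.11.15, with R 4.3.3, limma 3.58.1 and the data.table package (1.17.8). Of 261 listed genes in 14 lists, 257 were on the array, 23 of them under a synonym in RefSeq.

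The members, the lists and the settings were chosen with earlier results of these data known. Genes named are the members, those of each list past 2-fold in the same direction in both matings (else the ones with the largest ratios), and the 5 nearest to the members' medians, and not all genes that the rule allows are printed. The comparison along the transcript and the reading at the probe nearest the 3′ end were added after seeing the data.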

Additional observations from a re-analysis of the deposited data

How the results depend on the processing

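No paired analysis was possible because each group has 1 array, and for the same reason no array could be left out. Relative to 13 alternatives, the members' count of 5 genes lower in normal mated than in not mated became 8 at a 1.5-fold threshold (24.9% of all genes), 3 at 3-fold (4.96%), 8 under cyclic loess (9.93%), 8 under quantile normalization (10.6%), 8 under reference gene scaling (23.4%) and 9 under spike-in scaling (28.2%). It fell to 4 under median scaling (9.38%), with the median over probes (13.7%) and at the probe nearest the 3′ end (13.7%). Their median of -1.02 became -0.82 under median scaling, -0.94 with the median over probes and -0.94 at the probe nearest the 3′ end, and it became -1.35 under cyclic loess, -1.38 under reference gene scaling, -1.44 under quantile normalization and -1.52 under spike-in scaling. For vasectomized mated against not mated, the count of 3 lower became 5 at 1.5-fold (26.2% of all genes), 1 at 3-fold (7.74%), 6 under cyclic loess (17.6%), 6 under quantile normalization (18.4%), 5 under reference gene scaling (25.9%) and 8 under spike-in scaling (88.3%). It fell to 2 under median scaling (14.9%) and was 4 with normexp (9.33%). The count of 3 higher became 1 under cyclic loess (23.3%), 1 under quantile normalization (22.4%) and 0 under spike-in scaling (1.16%). It was 2 under reference gene scaling (16.6%), 2 with normexp (31.3%) and 4 at the probe nearest the 3′ end (25.3%). The median of -0.58 became -1.29 under cyclic loess, -1.37 under quantile normalization, -1.0 under reference gene scaling and -3.27 under spike-in scaling. It became -0.15 with the median over probes and 0.19 at the probe nearest the 3′ end, where only Acta2 and Mylk changed probe. For normal mated against vasectomized mated, spike-in scaling gave 6 higher (79.3% of all genes) and 2 lower (1.25%) in place of 0 and 4, and a median of 1.51 in place of -0.68, while the median over probes gave -1.25 and the probe nearest the 3′ end -1.41. Single genes turned direction under spike-in scaling, in normal mated over vasectomized mated for Acta2 (1.60), Cnn1 (0.31), Myh11 (1.68), Mylk (1.42) and Tagln (0.076), and in vasectomized mated over not mated for Cnn1 (-1.68), Myocd (-1.90) and Tagln (-0.41). Cnn1 also turned under quantile normalization (-0.21), and Acta2 with the median over probes (0.66) and at the probe nearest the 3′ end (2.97), all for vasectomized mated over not mated. Tagln in normal mated over not mated turned under quantile normalization (-0.15), reference gene scaling (-0.20), cyclic loess (-0.33) and spike-in scaling (-0.33). List medians of vasectomized mated over not mated turned under spike-in scaling, to -2.65 for calcium, potassium and junction proteins, -2.39 for stroma, -1.04 for leukocytes, -1.92 for mesothelium, -2.47 for non-muscle relatives, -2.40 for other contractile genes, -1.29 for pericytes, -2.58 for receptors, -2.10 for myosin phosphorylation, -2.49 for transcription and -2.25 for striated muscle. Spike-in scaling shifts every ratio alike, and for the other settings the cause was not tested. Of all genes called in normal mated over not mated, 42.5% were higher (1902 higher, 2571 lower), against 56.6% under median scaling, 52.9% under cyclic loess, 16.7% under spike-in scaling, 22.2% under reference gene scaling and 59.5% with normexp (1375 higher, 937 lower). For vasectomized mated over not mated the share of 60.9% became 39.1% under reference gene scaling, 77.1% with normexp and 1.29% under spike-in scaling (218 higher, 16641 lower), and for normal mated over vasectomized mated 34.5% became 98.4% under spike-in scaling (15600 higher, 246 lower). The share of spots well above background, which limits what can be read, was 70.7% in normal mated, 65.9% in vasectomized mated and 68.0% in not mated.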
